A study of Mus musculus with 4 samples.

Results

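Collagen is read at the cell surface by a small set of receptors, and 8 of their genes are described here: Itga1, Itga2, Itga10, Itga11, Itgb1, Ddr1, Ddr2 and Mrc2. They were chosen as a family, by symbol, with earlier results of these data known, and all 8 were present among the 32285 genes of each single-cell library and among the 19465 genes with probes on each tissue section. The 4 integrin alpha subunits each pair with the beta 1 subunit Itgb1 to bind native collagen, and they link the matrix to talin, kindlin and the actin cytoskeleton. Ddr1 and Ddr2 are discoidin domain receptors, tyrosine kinases that are switched on by collagen itself; Ddr1 is best known from epithelia and Ddr2 from mesenchyme. Mrc2, also called Endo180 or uPARAP, binds cleaved collagen and carries it into the cell for breakdown. In tendon and its healing wound, such receptors are the contact between mesenchymal cells and a matrix made mostly of type I collagen.

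Cells came from the digested tenotomy site of Hoxa11CreER;ROSA-LSL-TdTomato;Hif1a fl/fl mice 7 days after burn and Achilles tenotomy, following tamoxifen at 75 mg/kg for 5 days and a washout given in the labels as 9 days. The Cre driver acts in Hoxa11+ lineage cells, and the cells were not sorted, so other lineages in these libraries are not targeted. One library pools replicates 1 and 2 (library 1-2) and the other holds replicate 3 (library 3). Sections A1 and B1, labelled tendon, were formalin-fixed wild-type C57BL/6 tissue from male mice of 10 weeks, also 7 days after injury, measured with Visium probes; whether they came from separate mice was not stated, and p-values here measure only the spread between these samples. Littermates without Cre were not analysed here and genotypes were not compared. Fixed sections and digested cells differ in genotype, chemistry and handling, so levels are not compared between them.

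After filtering, 1276 and 795 cells (medians 13144 and 17213 UMIs, unique transcript molecules) and 3504 and 3185 spots (medians 454 and 516 UMIs) remained. Cells were gated by marker genes into 8 classes with at least 20 cells in each library, which are called "-like" because the names are rebuilt from markers. MPC-like cells carried wound and tendon mesenchyme markers (233 and 185 cells), and fibroblast-like cells carried dermal, fascial and synovial markers (42 and 41 cells). Both share common mesenchymal markers and form a range rather than separate types: 38 and 24 cells fell between the gates and 39 and 41 classed cells lay near the cut. In both libraries every marker of the other gates was highest in its own class, whereas 6 and 7 of the 10 fibroblast markers were. Cells that passed more than one gate (53 and 35) or none (316 and 175) were left out, 3 cells per library marked as doublets were kept, and 1 barcode occurred in both libraries. Median depth differed between classes, from 7159 UMIs per cell in Schwann-like to 48712 in MPC-like cells, so levels are given as CPM, the UMIs of a gene relative to all UMIs of the class, in library 1-2 and then library 3. Each transcript is counted once at its 3′ end, so these CPM values compare with each other without a length correction. Hif1a, the floxed gene, was at 484 and 368 CPM in MPC-like, 384 and 399 CPM in fibroblast-like, 311 and 327 CPM in endothelial-like and 52.1 and 63.9 CPM in Schwann-like cells, but counts at 3′ ends need not cover the deleted part and check nothing about the deletion.

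The 8 loci lie on the mouse GRCm38 genome as follows. Itga1 (ENSMUSG00000042284, chr13:114953096-115101964) and Itga2 (ENSMUSG00000015533, chr13:114833081-114932100) are neighbours on the minus strand of chromosome 13. Itga10 (ENSMUSG00000090210) spans chr3:96645584-96664519, Itga11 (ENSMUSG00000032243) chr9:62677826-62783982, Itgb1 (ENSMUSG00000025809) chr8:128685654-128733200 and Mrc2 (ENSMUSG00000020695) chr11:105292643-105351139, all on the plus strand. Ddr1 (ENSMUSG00000003534) spans chr17:35681567-35704621 and Ddr2 (ENSMUSG00000026674) chr1:169972307-170110762, both on the minus strand. Itga2, Itga11, Itgb1 and Mrc2 overlapped no other annotated gene. Itga1 shares its locus with Pelo and Gm49395 on its own strand, Itga10 with Gm42957, and Ddr1 with the small RNA gene Gm23864. Antisense genes lie across Itga1 (Gm10734), Ddr1 (Gm4577) and Ddr2 (3110045C21Rik), and reads of overlapping genes can be divided by the counting.

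The sequences just before the start sites of Itga11, Itga10 and Ddr1 are shown because these 3 genes were called between some of the wound, cartilage and skin spots in the results that follow. None of them was called in every comparison of these spots. Each run is the 250 bases before a RefSeq start on GRCm38.p6, printed 5′ to 3′ on the strand of the gene. Capitals mark E-boxes, the letters CANNTG, which read the same on both strands.
Itga11, chr9:62677605-62677854, + strand: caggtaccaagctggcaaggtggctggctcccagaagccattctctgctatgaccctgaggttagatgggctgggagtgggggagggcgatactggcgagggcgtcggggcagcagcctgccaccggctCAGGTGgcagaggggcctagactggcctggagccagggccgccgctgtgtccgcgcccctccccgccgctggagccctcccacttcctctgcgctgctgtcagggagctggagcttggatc
Itga10, chr3:96645334-96645583, + strand: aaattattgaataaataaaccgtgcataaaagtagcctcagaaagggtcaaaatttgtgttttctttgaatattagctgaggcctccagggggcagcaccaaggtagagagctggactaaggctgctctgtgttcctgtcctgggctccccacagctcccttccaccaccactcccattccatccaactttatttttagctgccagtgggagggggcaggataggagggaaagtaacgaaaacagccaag
Ddr1, chr17:35704600-35704849, - strand: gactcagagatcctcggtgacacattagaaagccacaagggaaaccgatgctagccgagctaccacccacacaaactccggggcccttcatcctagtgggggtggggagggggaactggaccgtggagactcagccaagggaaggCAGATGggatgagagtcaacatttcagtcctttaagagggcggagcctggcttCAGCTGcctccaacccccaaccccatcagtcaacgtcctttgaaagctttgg
The Itga11 window held 1 E-box, the Ddr1 window, before the most upstream of its 4 annotated starts, held 2, and the Itga10 window held none. E-boxes stood in 66.2% of 32851 windows of this length, so their presence here is ordinary. The hypoxia response core, spelled ACGTG or GCGTG and searched on both strands, stood in 38.6% of all windows and in none of these 3, while the windows before the third and the fourth start of Ddr1, not shown, held 1 and 2. The SOX core AACAAT stood in 9.4% of all windows and also in none of the 3. A match or its absence describes these letters only. Mrc2 had no entry among the windows.

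Itga11, the alpha subunit known from tendon and myofibroblasts, was the member most restricted to one class. It stood at 110 CPM in MPC-like cells of library 1-2 (1203 UMIs, 95% exact Poisson interval 104 to 116) and at 98.6 CPM in those of library 3 (897 UMIs, 92.3 to 105). Fibroblast-like cells had 8.43 and 16.0 CPM (10 and 25 UMIs), and pericyte- or smooth muscle-like cells had 16.2 and 8.04 CPM (31 and 8 UMIs). The 2 libraries of MPC-like cells lay above every other class, by 8.54 times over fibroblast-like cells on average, and fibroblast-like and pericyte-like cells were not apart from each other. No Itga11 UMI was found in endothelial-like, Schwann-like, keratinocyte-like or T or NK-like cells of either library. The limit of 3 counts for those zeros was 1.71 and 2.17 CPM in keratinocyte-like, 2.25 and 4.15 CPM in endothelial-like and 3.72 and 9.76 CPM in T or NK-like cells, and 10.1 CPM in Schwann-like cells of library 3. Macrophage-like cells held 1 UMI in all. These intervals and limits cover counting error only.

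In terms of cells, Itga11 was found in 86.3% of MPC-like cells in library 1-2 (95% Wilson interval 81.3 to 90.1%) and in 83.8% in library 3. Since these cells were sequenced most deeply, each cell was also thinned to 3000 UMIs, which kept all MPC-like cells and 41 fibroblast-like cells of each library. The expected shares then fell to 26.1% and 23.8% in MPC-like, 2.68% and 4.99% in fibroblast-like and 4.62% and 3.23% in pericyte-like cells. The order of the classes was thus the same at equal depth for MPC-like cells, while the other 2 stayed close together.

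Itga1, which pairs with Itgb1 to bind type IV and fibrillar collagens and is known from smooth muscle and capillaries, was highest outside the mesenchymal classes. Pericyte-like cells had 541 and 630 CPM, Schwann-like cells 365 and 289 CPM and endothelial-like cells 145 and 170 CPM. Each of these 3 classes was apart from the next in both libraries, and endothelial-like cells exceeded fibroblast-like cells by 7.25 times. Fibroblast-like (23.6 and 19.9 CPM) and MPC-like cells (17.8 and 14.8 CPM) were low and were not apart. T or NK-like cells differed between libraries, with 26 UMIs (32.2 CPM) in library 1-2 and 0 UMIs in library 3, where the limit of 3 counts was 9.76 CPM. Pelo, which lies within the Itga1 locus on the same strand, was at 58.1 and 69.4 CPM in pericyte-like cells, an order of magnitude below Itga1. Within the pericyte gate, cells of the cluster led by Rgs5 had 626 and 684 CPM of Itga1, and those of the cluster led by Mustn1 and Myh11 had 263 and 375 CPM. Itgb1 ran the other way between these clusters, at 1111 and 1172 CPM in the first and 1368 and 1469 CPM in the second.

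Itga2 and Itga10 were sparse. Itga2, the collagen receptor subunit of platelets and epithelia, was highest in Schwann-like cells (48.1 and 60.5 CPM, 12 and 18 UMIs) and endothelial-like cells (40 and 14 UMIs, 19.4 CPM in library 3), followed by T or NK-like cells (18.6 and 9.76 CPM). No neighbours in its order were apart in both libraries. MPC-like cells had 10.2 and 10.4 CPM (111 and 95 UMIs) against 1 and 3 UMIs in fibroblast-like cells. Almost all of it came from a single cluster: cells led by Comp, Fmod and C1qtnf3 held 110 of the 111 and 92 of the 95 Itga2 UMIs of the MPC gate, in 162 and 135 cells. These clusters were built without the members and without the pathway genes, and the comparison of clusters is a description.

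Itga10, a subunit known from cartilage, stood at 10.5 and 16.1 CPM in pericyte-like cells (20 and 16 UMIs) and at 10.2 and 11.8 CPM in MPC-like cells (111 and 107 UMIs). These classes were not apart. Endothelial-like cells had 5 and 3 UMIs, fibroblast-like cells 2 and 2, and no other class had more than 1 UMI in a library. Within the MPC gate, Itga11 also varied between clusters: it was at 128 and 113 CPM in the Comp and Fmod cluster, at 61.7 and 40.1 CPM in the cluster led by Cxcl5 and Cxcl14 (37 and 24 cells) and at 38.7 and 67.4 CPM in the cluster led by Coch and Igfbp2 (19 and 12 cells).

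Itgb1, the partner of all 4 alpha subunits and of many others, was by far the most abundant member and the only one found in every class of both libraries with more than 30 UMIs. Pericyte-like cells had 1168 and 1200 CPM, Schwann-like cells 903 and 904 CPM, endothelial-like cells 614 and 632 CPM and MPC-like cells 617 and 628 CPM. Endothelial-like and MPC-like cells did not differ, and the steps above and below them were apart in both libraries. Fibroblast-like cells followed at 376 and 357 CPM and macrophage-like cells at 268 and 258 CPM, and T or NK-like cells, at 291 and 163 CPM, were not apart from the latter. Keratinocyte-like cells were lowest at 27.9 and 27.5 CPM, 8.20 times below T or NK-like cells on average.

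The low keratinocyte level was itself uneven. The gate held a cluster led by Krt15 and Krt5 (20 and 19 cells), keratins of the basal layer, and also by the genes of dividing cells Hist1h1b and Mki67 and by Igkc. It also held 15 and 14 cells of the MPC gate, which are not counted here. The gate also held a cluster led by Krt10 and Krtdap (39 and 26 cells), genes of the suprabasal layers. The part of cell division in the differences between these clusters was not tested. Itgb1 was at 96.0 and 133 CPM in the Krt15 and Krt5 cluster and at 7.41 and 6.09 CPM in the Krt10 and Krtdap cluster. All 15 Itga2 UMIs of the keratinocyte gate lay in the Krt15 and Krt5 cluster. The gate as a whole leaned to the suprabasal side, with Krt10 at 18279 and 21896 CPM and Krt14 at 4505 and 1028 CPM.

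**Figure D1:**
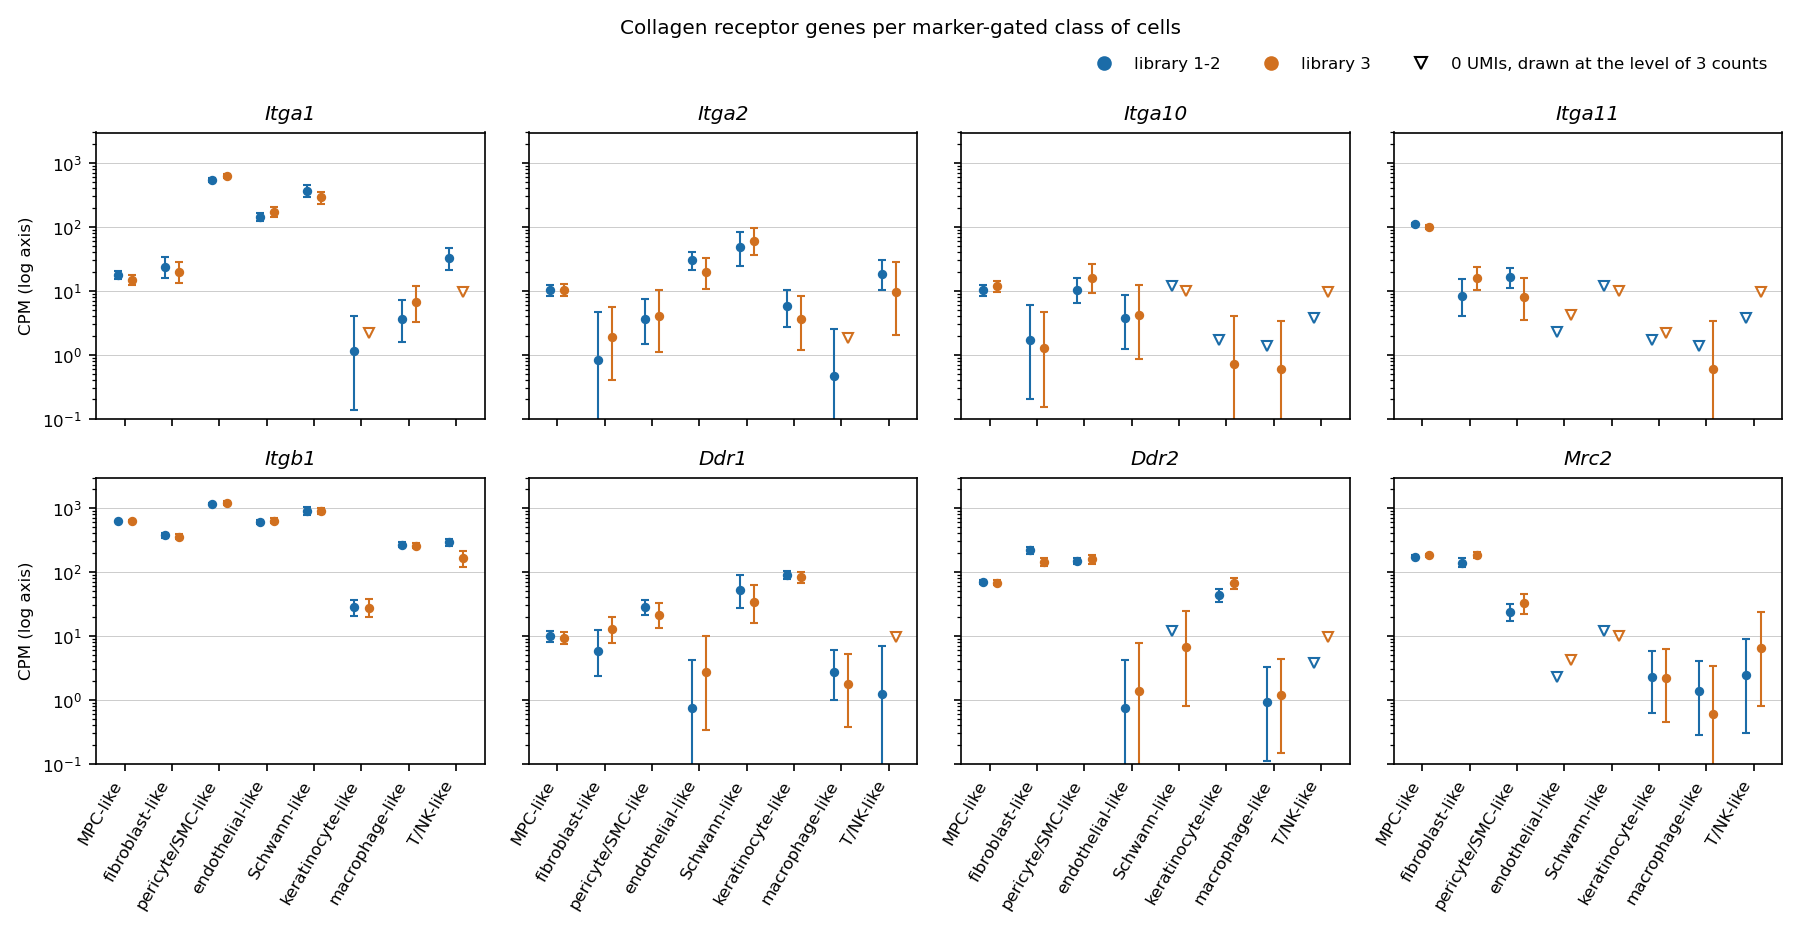
Levels of the 8 genes in each marker-gated class, in CPM on a log axis, with 1 point for each library and bars for the exact Poisson 95% interval; open symbols mark a count of 0, drawn at the limit of 3 counts. Itga11 and Mrc2 are highest in MPC-like or fibroblast-like cells, Itga1 and Itgb1 in pericyte-like cells and Ddr1 in keratinocyte-like cells, and the 2 libraries lie close together for most classes.

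The discoidin receptors were highest in different classes, while pericyte-like cells carried both. Ddr1 was highest in keratinocyte-like cells, at 90.0 and 82.5 CPM, followed by Schwann-like cells at 52.1 and 33.6 CPM and pericyte-like cells at 28.3 and 21.1 CPM. The Poisson intervals of keratinocyte-like and Schwann-like cells overlapped in library 1-2, where Schwann-like cells held 13 UMIs. MPC-like cells had 9.79 and 9.24 CPM, fibroblast-like cells 5.90 and 12.8 CPM, and the remaining classes at most 2.77 CPM. Ddr2 was highest in fibroblast-like cells at 217 and 143 CPM and in pericyte-like cells at 150 and 157 CPM, and these were not apart. MPC-like cells had 69.5 and 68.2 CPM, below pericyte-like cells in both libraries. Endothelial-like, macrophage-like, T or NK-like and Schwann-like cells held 0 to 2 Ddr2 UMIs per library.

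Keratinocyte-like cells, highest for Ddr1, also carried Ddr2 at 43.3 and 66.6 CPM (76 and 92 UMIs). These UMIs lay in the Krt10 and Krtdap cluster, with 75 and 92 UMIs, against 1 and 0 in the Krt15 and Krt5 cluster. Fibroblast markers summed to 3.42 and 4.34 CPM in the keratinocyte gate, with 8 and 7 of the 10 at 0, and Mrc2 was at 2.28 and 2.17 CPM. The common mesenchymal markers summed to 6.26 and 185 CPM there, with 2 and 3 of the 5 at 0, against 11571 and 11003 CPM in fibroblast-like cells. The antisense gene 3110045C21Rik had 4 and 2 UMIs. Skin spots, measured with probes, held 3 and 0 Ddr2 UMIs, which is too few to bear on it. The part of these genes in the Ddr2 signal was not tested. As a share of all discoidin receptor UMIs, Ddr2 made up 87.7% and 88.1% in MPC-like, 97.4% and 91.8% in fibroblast-like, 84.1% and 88.1% in pericyte-like and 32.5% and 44.7% in keratinocyte-like cells.

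Mrc2 was a gene of the mesenchymal classes. MPC-like cells had 173 and 181 CPM (1896 and 1646 UMIs) and fibroblast-like cells 140 and 186 CPM (166 and 290 UMIs), and the order of these classes differed between the libraries. Pericyte-like cells were lower at 23.6 and 32.2 CPM, 5.85 times below fibroblast-like cells on average. Endothelial-like and Schwann-like cells had no Mrc2 UMI, and the other classes had 1 to 4 UMIs per library. Mrc2 was found in 97.0% and 96.2% of MPC-like cells, and in 39.7% and 39.6% after thinning to 3000 UMIs.

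Across the set, the classes also differed in how much of their integrin repertoire was collagen-binding. Among UMIs of 12 alpha subunit genes that pair with beta 1, Itga1, Itga2, Itga10 and Itga11 made up 54.2% and 58.5% in pericyte-like cells and 42.8% and 43.7% in MPC-like cells. The share was 31.8% and 41.3% in Schwann-like, 25.7% and 26.2% in endothelial-like and 13.6% and 14.6% in fibroblast-like cells. It was 2.95% and 3.68% in keratinocyte-like and 0.973% and 2.30% in macrophage-like cells. T or NK-like cells differed between the libraries, with 16.3% (41 of 251 UMIs) and 3.53% (3 of 85 UMIs). The make-up of the share also differed: Itga11 supplied 74.3% and 72.7% of the collagen-binding alpha UMIs in MPC-like cells, and Itga1 supplied 94.7% and 95.7% in pericyte-like cells.

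**Figure D2:**
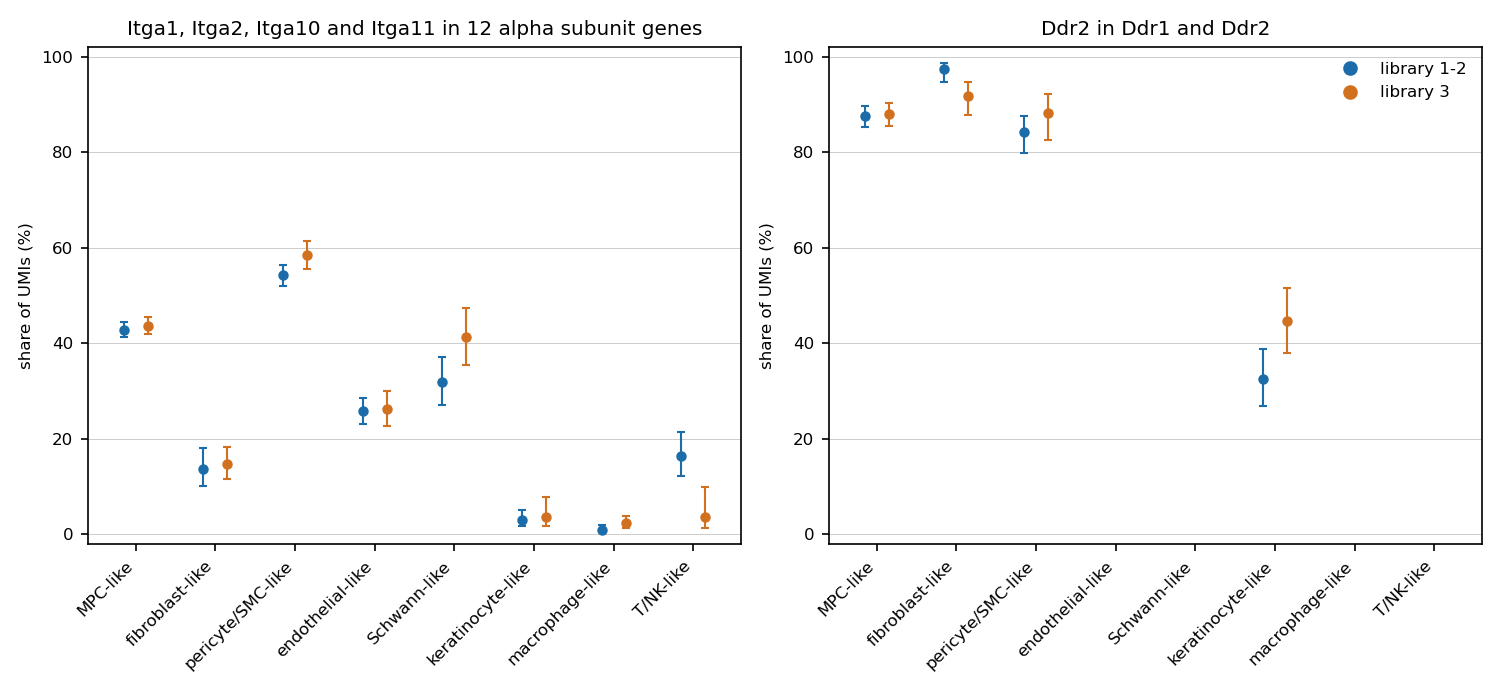
Left, the percentage of UMIs of 12 beta 1-partner alpha subunit genes that came from Itga1, Itga2, Itga10 and Itga11; right, the percentage of Ddr1 and Ddr2 UMIs that came from Ddr2, by class and library with Wilson 95% intervals, leaving out classes with under 20 such UMIs. Pericyte-like and MPC-like cells lie above 40% on the left in both libraries, and Schwann-like cells do so in library 3 only. Ddr2 lies above 80% in the 3 mesenchymal and mural classes and below 50% in keratinocyte-like cells.

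Over the 16 sums of class and library, Itga11 and Mrc2 varied most alike among the members (Pearson r = 0.91 of log2(CPM + 1)), followed by Itga1 and Itgb1 (r = 0.85), Ddr2 and Mrc2 (r = 0.77) and Itga10 and Itga11 (r = 0.75). Among the members, Ddr1 was most like Ddr2 (r = 0.54). Of 12022 genes with at least 100 UMIs, those most like Itga11 were Srpx2 (r = 0.98), Acan (r = 0.98) and Adcy2 (r = 0.97), and those most like Mrc2 were Ror2 (r = 0.96), Cacna1g (r = 0.96) and Twist2 (r = 0.95). For Itga1 they were Filip1 (r = 0.93), Sorbs2 and Emid1, for Itga10 Acta2 (r = 0.93), Actn1 and Foxf1, and for Itga2 Hmgb3 (r = 0.89), Terf2ip and Rab5a. For Itgb1 they were Rsu1 (r = 0.97), Morf4l1 and Lims1, of which Lims1 encodes a partner of integrin-linked kinase. For Ddr1 they were Kctd15 (r = 0.95), Ndufb9 and Miga2, and for Ddr2 Ror1 (r = 0.97), Hoxc8 and Hoxc6. Acan, Acta2 and Twist2 were gating markers, the sums come from only 2 libraries, and these values carry no test.

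MPC-like and fibroblast-like cells were compared directly with edgeR's quasi-likelihood test on sums per class and library, with the library as a block and Benjamini-Hochberg adjustment over 12487 genes. Of the 8 members, 4 were higher in MPC-like cells and 1 was lower in a comparison that called 15% of all genes (6.13% higher and 8.85% lower, with a median of 0.06 on the log2 scale over all genes). Itga11 had a log2 fold change of 3.02 (SE 0.30, edgeR adjusted p = 1.444e-06), which is 8.12-fold. Itga10 was higher by 2.88 (SE 0.64, edgeR adjusted p = 0.003412) and Itga2 by 2.76 (SE 0.58, edgeR adjusted p = 0.00194), both resting on 4 UMIs in fibroblast-like cells over both libraries. Itgb1 was higher by 0.76 (SE 0.18, edgeR adjusted p = 0.00557), or 1.69-fold, and this call was lost when classes were taken from Seurat clusters (0.59, edgeR adjusted p = 0.06477).

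Ddr2 was lower in MPC-like cells by a log2 fold change of -1.39 (SE 0.20, edgeR adjusted p = 5.252e-05), a ratio of 2.61. It was lower in each library, but limma on log2(CPM + 1) gave an adjusted p of 0.3666. Itga1 (-0.41, SE 0.35), Ddr1 (-0.06, SE 0.35) and Mrc2 (0.12, SE 0.17) did not pass, with edgeR adjusted p of 0.5288, 0.9688 and 0.7319. On the log2(CPM + 1) scale each library alone gave 3.56 (library 1-2) and 2.55 (library 3) for Itga11, 2.60 and 1.97 for Itga2, and 2.05 and 2.48 for Itga10. MPC markers summed to 17108 and 18083 CPM in MPC-like and to 3973 and 5474 CPM in fibroblast-like cells, none at 0 in either, so the fibroblast gate contains MPC marker RNA; its part in these differences was not tested.

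**Figure D3:**
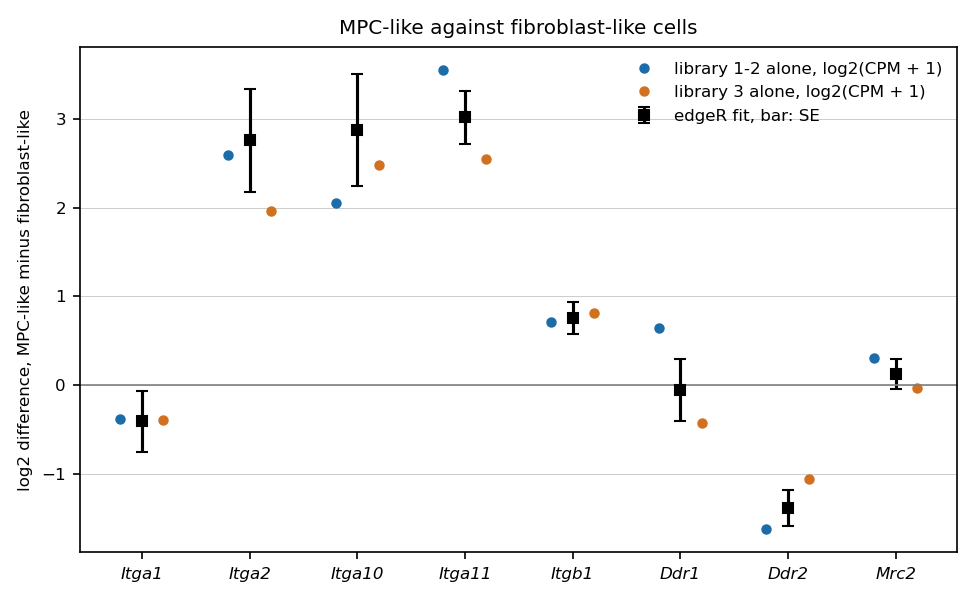
Log2 fold change of each gene in MPC-like against fibroblast-like cells; black squares with bars give the edgeR estimate with its SE over both libraries, and coloured points give each library alone on the log2(CPM + 1) scale. Itga11, Itga10, Itga2 and Itgb1 lie above 0 in both libraries, Ddr2 lies below 0 in both, and Ddr1 and Mrc2 lie on either side of 0.

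Genes around these receptors were called in both directions. Of 8 other alpha subunits that pair with beta 1, none rose and Itga9 fell (-1.90, edgeR adjusted p = 0.003381), with a list median of 0.07. Of 6 other beta subunits tested, Itgb3 of the vitronectin receptor fell (-1.39, edgeR adjusted p = 0.003829). Of 16 genes of integrin activation and focal adhesion, 3 rose and 2 fell with a median of 0.11, the latter being the adaptors Lims2 (-3.14, edgeR adjusted p = 0.002751, at 0.457 and 1.10 against 8.43 and 5.77 CPM) and Pxn (-1.54, edgeR adjusted p = 1.984e-05). Of 14 collagen genes tested, 5 rose and 2 fell (median 0.35). Col11a1, a minor fibrillar chain of cartilage and tendon, rose from 77.6 and 143 CPM in fibroblast-like to 1654 and 1037 CPM in MPC-like cells (3.55, edgeR adjusted p = 2.18e-08). Col9a1 had no UMI in fibroblast-like cells and 46.3 and 8.25 CPM in MPC-like cells. Of 8 collagen breakdown genes, the collagenase Mmp13 rose (2.64, edgeR adjusted p = 0.0005119) and Plau fell (-1.62, edgeR adjusted p = 1.337e-05), with 2 rising and 1 falling in all and a median of -0.01. The size for Mmp13 rested on library 3, where it was at 351 against 11.5 CPM, while library 1-2 had 145 against 68.3 CPM.

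The remaining classes were each set against the equal-weight mean of the others on the log scale. This mean is ill-defined for 7 of the 8 members, which have sums at 0 in some classes. A call can thus go against the plain mean of CPM. Fold changes are given here only for members whose levels point the same way. The fit gave no SE and no call for Itga11, Ddr2 and Mrc2 in endothelial-like and Itga11 in keratinocyte-like cells. The same held for Itga10 and Itga11 in macrophage-like and T or NK-like cells together. Each of these classes held at most 1 UMI of the gene in question per library, so a missing call there does not mean equal levels. MPC-like and fibroblast-like cells together were called higher for 5 members (Itga10, Itga11, Itgb1, Ddr2 and Mrc2), where 31% of all genes were called higher. Their mean Itgb1 was nevertheless 497 and 492 CPM against 545 and 531 CPM for the plain mean of the other classes. Pericyte-like cells were called higher for 7 members, where 20.7% of all genes were called higher and 7.46% lower. For Itga1 the log2 fold change was 4.75 (SE 0.18, edgeR adjusted p = 6.927e-15) and for Itgb1 1.87 (SE 0.12, edgeR adjusted p = 3.773e-11). The plain levels of Itga1 were 541 and 631 CPM against 84.1 and 71.5 CPM in the others. For Itga1 each library alone gave 4.38 (library 1-2) and 5.46 (library 3) on the log2(CPM + 1) scale. For Itga11 and Mrc2 the plain means went against the call, with Mrc2 at 23.6 and 32.2 CPM against 45.6 and 53.7 CPM in the others. Itga2 was the member not called (edgeR adjusted p = 0.2568).

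Keratinocyte-like cells were called for 4 members, 2 higher and 2 lower, where 41.9% of all genes were called (24.6% higher and 17.4% lower). Ddr1 was higher by 4.01 (SE 0.22, edgeR adjusted p = 1.581e-12), with plain levels of 14.4 and 11.6 CPM in the others, and Itgb1 lower by a log2 fold change of -4.00 (SE 0.21, edgeR adjusted p = 6.974e-13). Itga1 was also called lower, which was lost with Seurat clusters (edgeR adjusted p = 0.4121). The higher call for Ddr2 went with 43.3 and 66.6 CPM against a plain mean of 62.6 and 54.0 CPM in the others. Endothelial-like cells were called higher for Itga1, Itga2 and Itgb1 and lower for Ddr1, where 27.2% of all genes were called (19.1% higher and 8.1% lower). Itga2 was higher by 2.19 (SE 0.33, edgeR adjusted p = 2.177e-05) and, in plain levels of library 3, stood at 19.4 against 12.9 CPM. Itgb1 was higher by 0.75 (SE 0.13, edgeR adjusted p = 0.000138), a call that was lost with Seurat clusters (0.35, edgeR adjusted p = 0.1043), while Itga1 at 145 and 170 CPM lay near the plain mean of 141 and 137 CPM. Macrophage-like and T or NK-like cells together were called lower for 5 members (Itga1, Itga2, Itgb1, Ddr1 and Ddr2), where 22.2% of all genes were called lower. Itgb1 was lower by a log2 fold change of -0.61 (SE 0.12, edgeR adjusted p = 0.0002111).

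Other integrin and adhesion genes differed between classes as well. Immune-like cells were called higher for 2 of 8 other alpha subunits and 2 of 6 other beta subunits, where 22.9% of all genes were called higher. Their levels included Itgb2 of the leukocyte integrins at 172 and 135 CPM against 0.509 and 2.84 CPM in the others, Itgb7 at 128 and 149 against 0.406 and 0.684 CPM, and Itga4 at 101 and 43.7 against 19.2 and 9.14 CPM. Fermt3, the kindlin of blood cells, was at 159 and 166 CPM against 1.89 and 0.648 CPM. Pericyte-like cells were called higher for 6 of 8 other alpha subunits, where 20.7% of all genes were called higher. Their levels included Itga7 at 150 and 176 CPM against 11.7 and 10.7 CPM and Itga8 at 68.1 and 32.2 CPM against 1.28 and 2.33 CPM. They were also called higher for 11 of 16 adhesion genes, where Fermt2, the kindlin of mesenchyme, was at 469 and 532 CPM against 152 and 144 CPM. Keratinocyte-like cells had Fermt1, the epidermal kindlin, at 17.1 and 15.9 CPM, and the 14 sums of all other classes were at 0.

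Collagen genes were called higher in the mesenchymal and the pericyte-like classes. MPC-like and fibroblast-like cells were called higher for 12 of 14 collagen genes (median log2 fold change 6.33, against 0.11 for all genes) and for 8 of 8 breakdown genes (median 2.95), where 31% of all genes were called higher. For Plaur the plain levels went the other way, at 53.3 and 56.5 CPM against 81.1 and 63.4 CPM in the others, and for Ctsb they did so in library 3 (612 against 707 CPM). Col1a2 was at 21046 and 22954 CPM against 449 and 564 CPM in the others, and the collagen-cleaving cathepsin Ctsk at 658 and 814 CPM against 38.4 and 42.1 CPM. Pericyte-like cells were called higher for 11 of 14 collagen genes and lower for 1 (median 3.32). Of all genes, 20.7% were called higher there and 7.46% lower. These calls rest on the log-scale mean of the other classes and do not place pericyte-like cells above MPC-like or fibroblast-like cells. For Col1a2, the 449 and 564 CPM given above is a mean over classes that include pericyte-like cells. Endothelial-like cells were called lower for 9 of 14 collagen genes and higher for 3, among which Col4a1 of the basement membrane was at 2574 and 2666 CPM against 619 and 688 CPM. Immune-like cells were called lower for 11 of 14 collagen genes and keratinocyte-like cells for 9 of 14. Of all genes, 22.2% were called lower in immune-like, 17.4% in keratinocyte-like and 8.1% in endothelial-like cells.

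On the sections, 3 spot classes were compared: wound spots (128 and 124, in A1 and then B1), cartilage spots (82 and 67) and skin spots of the epidermis (103 and 130). Cartilage and skin spots were gated by markers in single spots. Wound spots were the region, clustered without the members, that had the highest summed wound markers in both sections, and its leading genes were Mmp3, Thbs4 and Sod3. Wound markers summed to 2020 and 2564 CPM there, 1423 and 1436 CPM in cartilage spots and 805 and 636 CPM in skin spots, and the small class of bone spots reached 2054 CPM in A1. Tendon markers (643 and 749 CPM in wound spots) gated only 1 and 5 spots, although the sections are labelled tendon. A spot can hold several cells, and fewer cells of a type and less RNA per cell cannot be told apart. Median depth was 1763 and 1845 UMIs in wound, 870 and 741 in cartilage and 1218 and 942.5 in skin spots.

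Itga11 was highest in wound spots, above skin but not past the test against cartilage. Wound spots had 237 and 264 CPM (55 and 69 UMIs in 37 and 43 spots), cartilage spots 111 and 136 CPM (9 and 9 UMIs) and skin spots 69.7 and 28.6 CPM (11 and 5 UMIs). Both wound values lay above all cartilage and skin values. Against skin the log2 fold change was 2.17 (SE 0.46, edgeR adjusted p = 4.067e-05), a ratio of 4.49, and on the log2(CPM + 1) scale it was 1.75 in A1 alone and 3.16 in B1 alone. Against cartilage it was 0.99 (SE 0.47, edgeR adjusted p = 0.481), which did not pass. Cartilage against skin, at 1.17 (SE 0.60, edgeR adjusted p = 0.1639), did not pass either.

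Itga10 was higher in cartilage spots than in wound or skin spots. Cartilage spots had 198 and 197 CPM (16 and 13 UMIs), wound spots 21.6 and 19.1 CPM (5 and 5 UMIs) and skin spots 31.7 and 5.73 CPM (5 and 1 UMIs). It was higher in cartilage than in skin by a log2 fold change of 3.23 (SE 0.71, edgeR adjusted p = 7.776e-05), with 2.61 in A1 alone and 4.88 in B1 alone. It was lower in wound than in cartilage by -3.22 (SE 0.64, edgeR adjusted p = 7.269e-05), and wound and skin gave 0.02 (SE 0.90, edgeR adjusted p = 0.9954). Bone spots, only 28 and 22 of them, were higher still at 576 and 390 CPM (16 and 8 UMIs), although their intervals overlapped those of cartilage. Cartilage markers summed to 49320 and 66813 CPM in cartilage spots and to 4540 and 4149 CPM in bone spots.

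**Figure D4:**
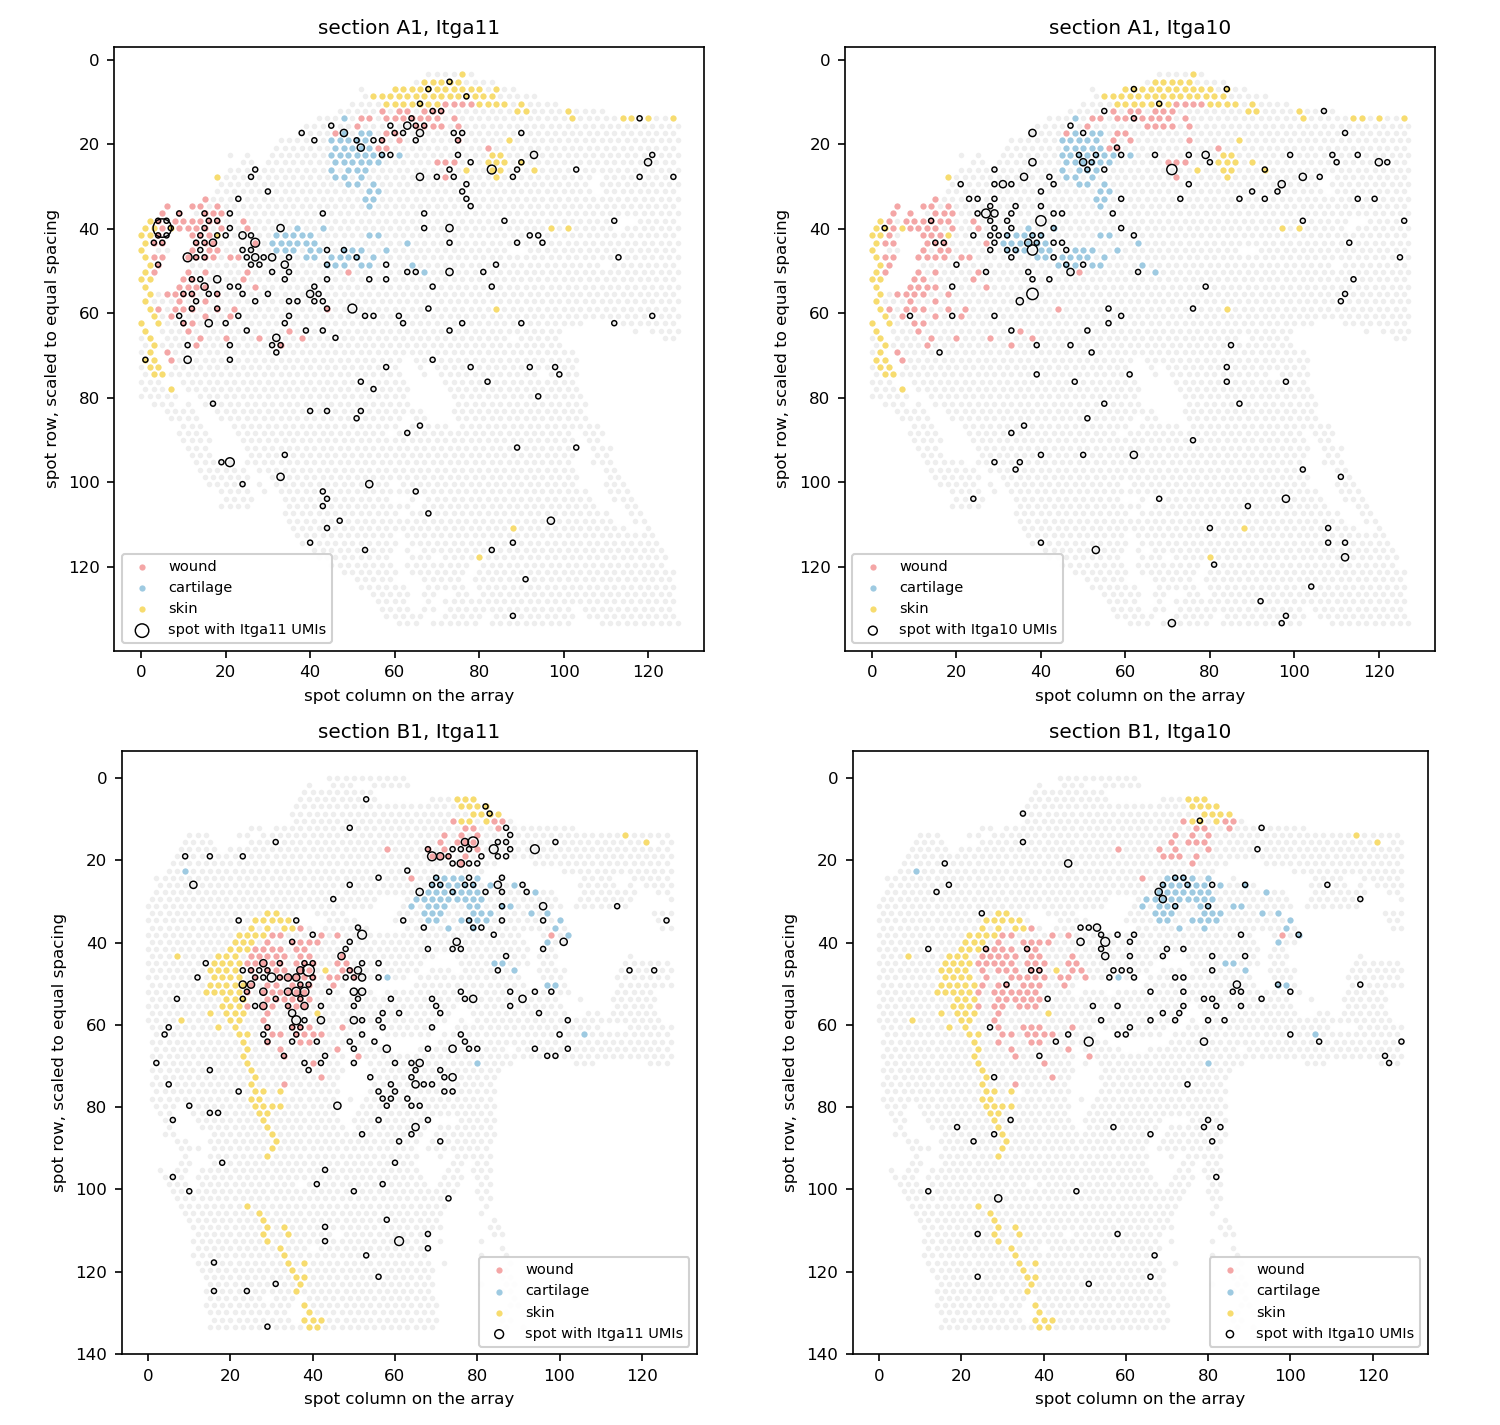
Positions of wound, cartilage and skin spots on each section with open circles, sized by UMI count, at spots with Itga11 (left) or Itga10 (right); axes are array columns and rows scaled to equal spacing. Itga11 UMIs are dense in the wound spots of both sections, and Itga10 UMIs gather over and beside the cartilage spots with few in the wound.

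Ddr1 was highest in skin spots, at 310 and 258 CPM (49 and 45 UMIs), against 117 and 84.1 CPM in wound and 124 and 75.6 CPM in cartilage spots. It was lower in wound than in skin by -1.68 (SE 0.37, edgeR adjusted p = 0.0001008) and lower in cartilage than in skin by -1.65 (SE 0.47, edgeR adjusted p = 0.00445), and wound and cartilage gave -0.03 (SE 0.52). Epidermal markers were also highest in skin spots, summing to 58655 and 65376 CPM. They summed to 11271 and 11282 CPM in wound and 4566 and 5789 CPM in cartilage spots, with at most 1 of 8 at 0 in each class. Between wound and cartilage spots these markers thus differed while Ddr1 was similar. The part of the epidermal markers in the result was not tested. Skeletal muscle spots had 237 and 229 CPM of Ddr1, near the skin level, with epidermal markers at 11997 and 9044 CPM.

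Mrc2 was spread more evenly. Wound spots had 263 and 199 CPM, cartilage spots 247 and 227 CPM, bone spots 288 and 293 CPM and skin spots 158 and 45.8 CPM. It was higher in wound than in skin by 1.06 (SE 0.39, edgeR adjusted p = 0.03441), but the call was lost without the section block (edgeR adjusted p = 0.08108), and the size rested on section B1: the log2(CPM + 1) difference was 0.73 in A1 alone and 2.09 in B1 alone. Cartilage against skin gave 1.11 (SE 0.46, edgeR adjusted p = 0.07022) and wound against cartilage -0.05 (SE 0.40, edgeR adjusted p = 0.9934). Itga1, Itga2, Itgb1 and Ddr2 did not pass the filter on low counts. Over all spots they had 25 and 46, 4 and 10, 37 and 47, and 60 and 81 UMIs, so that Itgb1, the most abundant member in cells, was not tested on the sections. Its level over all spots was 16.4 and 20.4 CPM, below Itga10 at 88.2 and 55.5 CPM and Mrc2 at 270 and 224 CPM, and the cause was not tested.

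Of the 4 members tested, 3 were called between wound and skin (2 higher and 1 lower), where 22.9% of 3462 genes were called (11.4% higher and 11.5% lower). Between cartilage and skin 1 was called higher and 1 lower, where 20.2% of genes were called (8.98% higher and 11.2% lower). Between wound and cartilage 1 was called lower, where 1.88% of genes were called (0.722% higher and 1.16% lower). The comparisons share their skin or cartilage samples. Limma on log2(CPM + 1) called 0 of the 4 in each comparison, with 2, 3 and 1 at an unadjusted p under 0.05, and 81, 126 and 4 of all genes.

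**Figure D5:**
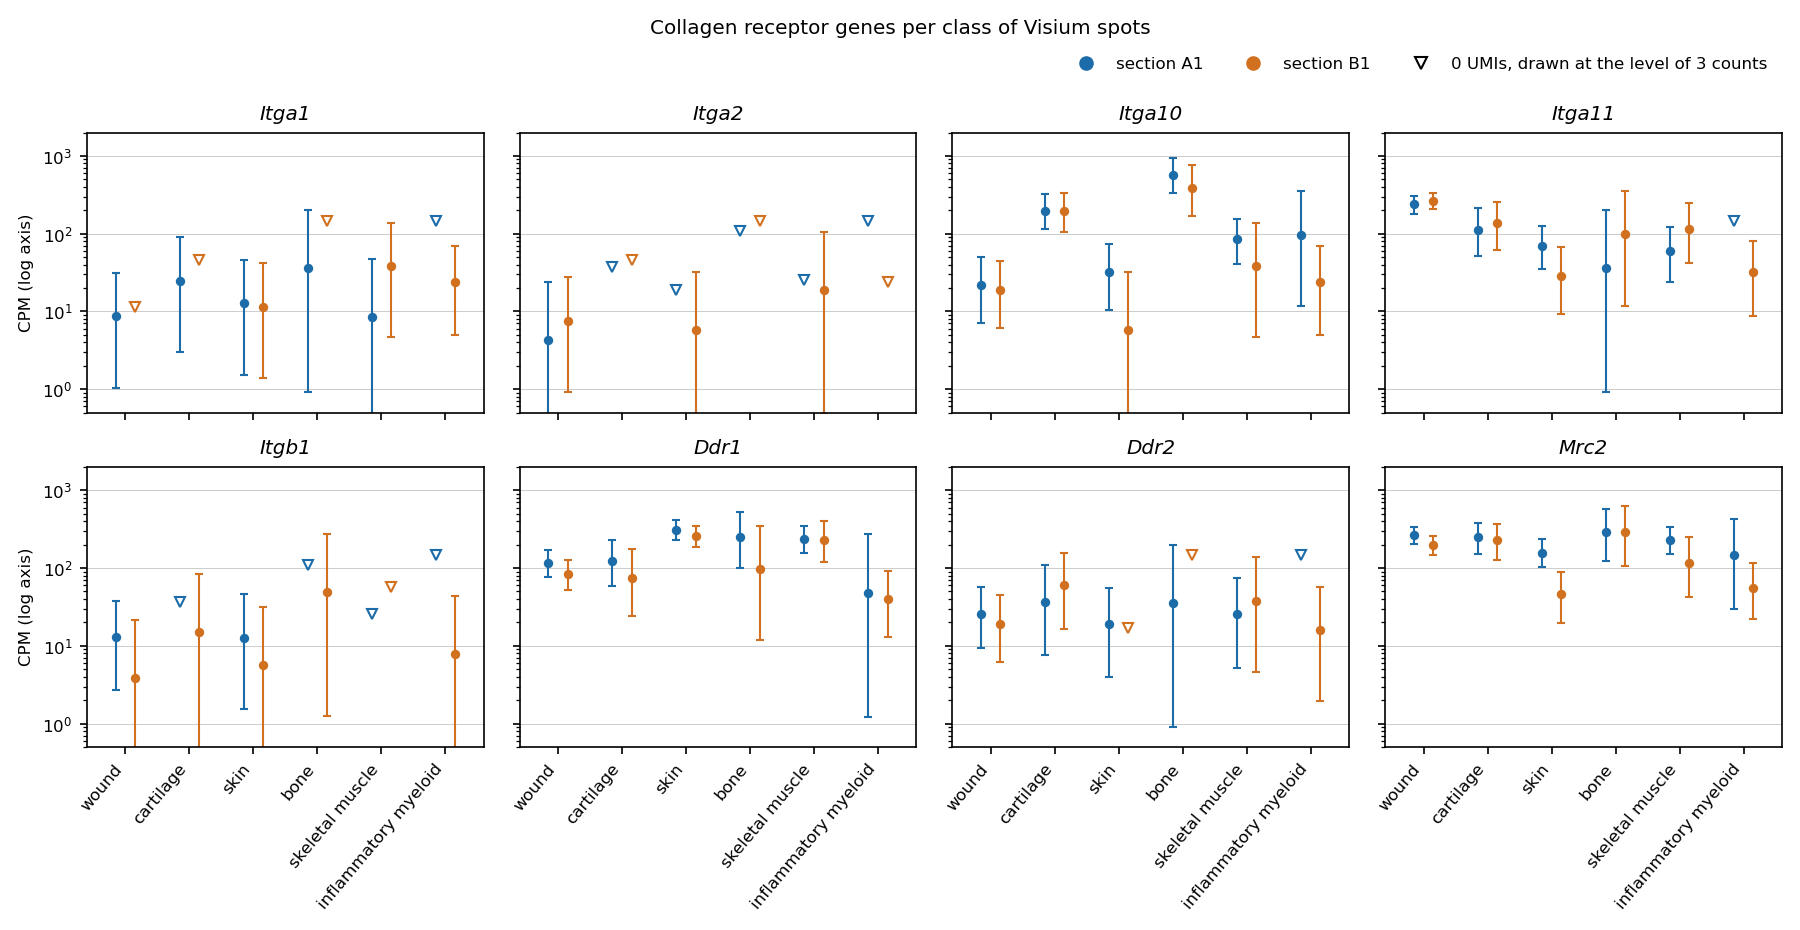
Levels of the 8 genes in each spot class, in CPM on a log axis, with 1 point for each section and bars for the exact Poisson 95% interval; open symbols mark a count of 0, drawn at the limit of 3 counts. Itga11 is highest in wound spots, Itga10 in bone and cartilage spots and Ddr1 in skin spots, and the 4 genes that failed the filter have wide intervals.

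Most collagen ligands were higher in wound and cartilage spots than in skin spots. Wound spots were higher than skin spots for 12 of 14 collagen genes (median log2 fold change 1.67, against -0.01 for all genes). Cartilage spots were higher than skin spots for 11 of 14 (median 1.60). Of all genes, 11.4% were called higher in wound and 8.98% in cartilage than in skin spots. In the wound the collagen genes included Col11a1 (2.47, edgeR adjusted p = 0.005949) and Col1a1 (1.84, edgeR adjusted p = 4.988e-09). Col9a1, a cartilage collagen, was the single list gene called between wound and cartilage, at 250 and 203 CPM against 8082 and 7589 CPM. Among breakdown genes, 3 of 7 were higher in wound than in skin, with Mmp14 (2.56, edgeR adjusted p = 0.003605) and Mmp2 (2.48, edgeR adjusted p = 5.735e-09), and 3 of 7 were higher in cartilage. Of 8 adhesion genes tested, the talin gene Tln1 (2.27, edgeR adjusted p = 0.0003443) and Zyx (0.90, edgeR adjusted p = 0.01249) were higher in wound than in skin. The filter kept only 2 of the 8 other alpha subunits and 2 of the 7 other beta subunits. Of these, Itga6 and Itgb4 were lower in wound than in skin (-1.65 and -1.49, edgeR adjusted p = 2.806e-06 and 0.007123). Together they form the hemidesmosome receptor of basal keratinocytes. Of all genes, 11.5% were called lower in wound than in skin. Itga6 was at 263 and 161 CPM against 551 and 607 CPM. For Itgb4 the size rested on section B1, at 53.5 against 246 CPM, while A1 had 86.4 against 114 CPM.

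Around the wound, Itga11 was higher at the edge than far from it, as a description without a test. Edge spots, those of the wound region with a neighbour outside it, numbered 124 and 115, and interior spots 14 and 44. The edge was thus most of the wound region, and its level largely restates that of the wound spots. Spots at the edge of the wound region had 250 and 270 CPM, spots adjacent to it 148 and 126 CPM and spots farther away 93.3 and 114 CPM. The interior spots had 72.9 and 199 CPM (2 and 24 UMIs), with intervals that overlapped those of the edge in both sections. The intervals of edge and farther spots did not overlap in either section, whereas for Mrc2 the edge (263 and 229 CPM) and farther spots (271 and 234 CPM) had overlapping intervals. The authors' deposited Moran's I, a score of spatial autocorrelation that is 0 for no clustering, placed Itga11 among the top 4.6% and 5.04% of 19132 and 19222 genes, with scores of 0.0202 and 0.0290. Itga10 had 0.0231 and 0.0193 (top 3.74% and 10.2%) and Ddr1 0.0124 and 0.0113 (top 9.3% and 21.5%). Mrc2, at -0.000122 and 0.00877 (top 44.7% and 27.3%), ranked below Itga11, Itga10 and Ddr1 in both sections.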

How the data were processed

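Tenotomy-site cells of 2 single-cell libraries and spots of 2 Visium sections were analysed. Per the labels, the UMI counts the authors deposited came from Cell Ranger 5.0.1 (cells) and Space Ranger 2.0.1 (spots) on mm10, with replicates 1 and 2 pooled in one library. The authors also deposited a Moran's I score per gene and section, used as it stands, with its p-values left out. Cells with up to 20% mitochondrial and at least 5% ribosomal UMIs, at least 200 genes and below the 99th percentile of UMIs and genes were kept, as were spots with at least 100 UMIs. Scrublet doublets (expected rate 0.02) were marked and kept. A marker counted in a cell at 2 UMIs or more, and a class needed a share of 0.4 of its markers (0.6 of the common mesenchymal markers, and a gap of 0.1 between MPC and fibroblast shares). Spots needed at least 2 markers and a Poisson tail below 0.001, except that wound spots were a clustered region. Seurat 5.3.0 clustered cells and spots (2000 variable genes without members or lists, 30 and 20 components, resolution 0.8). Counts were summed per class and sample. Sums ranged from 249292 to 10931512 UMIs in cells.

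EdgeR 4.0.16 (TMM, filterByExpr, quasi-likelihood test, adjusted p under 0.05) fitted all classes together with library or section as a block, since classes of one sample come from the same mice or tissue; 12487 genes were tested in cells and 3462 in spots. DESeq2 1.42.0, limma 3.58.1 with a pseudocount of 1, no filter, no block, other gates, Seurat clusters and each sample alone were tried; limma and 2 other spot classes were added after the data were seen. The steps were tested on simulated data. Exact Poisson and Wilson intervals cover 95%. The members and lists were chosen with earlier results of these data known. Genes named are the members, the 2 largest calls with 1 sign in both samples per list and comparison, the 3 most alike genes per member, and Hif1a; other genes named mark clusters. R 4.3.3 and Python 3.11.15 (scanpy 1.11.5, scipy 1.17.1) were used.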

Additional observations from a re-analysis of the deposited data

How the results depend on the processing

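The number of members called changed by more than 1.5 times in 8 instances: mesenchyme rose from 5 to 8 with the stricter gate, keratinocyte from 4 to 7 and endothelial from 4 to 8 with limma, and immune from 5 to 8 with DESeq2 and with limma. In spots limma gave 0 in place of 3 (wound against skin), 2 (cartilage against skin) and 1 (wound against cartilage). With the stricter gate Itga2, which was not called in mesenchyme in the main fit (-0.65, edgeR adjusted p = 0.3197), turned to higher (1.41). With Seurat clusters the keratinocyte values turned to higher for Itga10 (1.87), Itga11 (4.38) and Mrc2 (4.46), which the main fit had not called. They also turned to higher for Fermt2 (0.87), Col6a3 (3.27), Col1a1 (3.24) and Ctsk (2.19). The Krt15 and Krt5 cluster, counted as keratinocyte there, also held 15 and 14 cells of the MPC gate and 32 and 23 of no class. The part of those cells in these values was not tested. Without the replicate block, 2 members instead of 3 were called between wound and skin, Mrc2 being lost (edgeR adjusted p = 0.08108), and no other member call changed. Mrc2 in that comparison was also lost with DESeq2 (adjusted p = 0.172), limma (0.3208), no filter (0.08255) and both other spot classes (0.137 and 0.1246); the cause was not tested. With Seurat clusters the calls for Itgb1 in endothelial-like cells (0.35, edgeR adjusted p = 0.1043) and Itga1 in keratinocyte-like cells (-0.38, edgeR adjusted p = 0.4121) were lost, and Itga1 was called lower in MPC-like than in fibroblast-like cells (-1.14, edgeR adjusted p = 0.0462). Mrc2 between cartilage and skin was called on spots with at least 500 UMIs (edgeR adjusted p = 0.02383), and Itga11 with regions from clustering (edgeR adjusted p = 0.04514). The stricter gate left no fibroblast or Schwann class, so MPC against fibroblast was not run with it, and its mesenchyme values set MPC-like cells alone against 5 other classes, a different contrast. Each sample alone gives a value without a test, on the log2(CPM + 1) scale. On the sections, 4 members did not pass the low-count filter.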

Other observations

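Itga2 was also seen in a class too small to be fitted. Mast-like cells, gated by Cpa3, Mcpt4, Cma1 and Tpsb2, numbered 8 in library 1-2 and 14 in library 3 and held 2 and 15 Itga2 UMIs (79.8 and 170 CPM), the highest level of any class in both libraries, on few UMIs. They had 4 and 20 Itgb1 UMIs and no UMI of Itga1, Itga10, Itga11, Ddr2 or Mrc2. The cells were chosen for mention after their values were seen, and no test was made.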
